A study of Mus musculus with 12 samples.

Results

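The 10 genes described here encode proteins that set how long a messenger RNA lasts in the cytoplasm: Zfp36, Zfp36l1, Zfp36l2, Elavl1, Btg1, Btg2, Zc3h12a, Rc3h1, Khsrp and Pum2. They were taken by symbol from the 14460 genes of the deposited table, in which all 10 had a row. All 10 also passed the filter on low values (a mean signal of at least 1), which left 12879 genes for testing. RNA was sequenced from GFP-positive cells of mouse hearts, in 12 libraries of 4 groups with 3 libraries each, which the labels call independent biological replicates. The animals of every group, controls included, were Cx3cr1 GFP/+ mice aged 2 to 3 months, so all of them carry GFP in place of 1 copy of the chemokine receptor gene Cx3cr1. Day 0 is the heart without surgery, sorted for Ly6c-low and CX3CR1-high cells. Day 3 follows cryoinjury, in which part of the ventricle is frozen as a model of infarction, and was sorted for Ly6c-high and CX3CR1-low cells. Days 7 and 30 after cryoinjury were sorted like day 0. Any comparison with day 3 therefore joins time and sorting gate, and the effects of these cannot be told apart. How many hearts went into a library is not given in the sources used here.

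Zfp36 (tristetraprolin) and its relatives Zfp36l1 and Zfp36l2 are zinc finger proteins that bind AU-rich elements in 3′ untranslated regions and recruit the CCR4-NOT complex, which shortens the poly(A) tail. Btg1 and Btg2 bind the deadenylases of the same complex and promote tail shortening more generally. Zc3h12a (regnase-1) is an endonuclease and Rc3h1 (roquin-1) a binding protein, and both act on stem-loops in transcripts of inflammatory genes. Khsrp (KSRP) promotes the decay of AU-rich transcripts, Elavl1 (HuR) binds such transcripts and usually stabilises them, and Pum2 (Pumilio 2) represses transcripts with the Pumilio element. In macrophages several of these proteins limit cytokine output, and some, Zfp36 and Zc3h12a first among them, are themselves products of inflammatory signalling.

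Some of the regulators carry the elements that others of them read. The AU-rich nonamer (TTATTTATT, sense strand only, overlapping copies counted) was found in the 3′ untranslated regions of 5 of the 10, against 8.12% of 11462 tested genes and 11.0% of the 7068 genes with a region as long as those of the 10. Zfp36, Zfp36l1, Zfp36l2 and Rc3h1 had 1 copy each and Elavl1 had 8. The first copy in each is shown with up to 8 bases on either side, because these are the letters that the Zfp36 family itself is known to bind. The capitals mark the nonamer, and in Elavl1 and Tnf the capitals run on through overlapping copies. Tnf, the best known target of Zfp36, is shown for comparison and had 5 copies. Sequences are DNA letters of GENCODE M21 transcripts on GRCm38, 5′ to 3′.
Zfp36, chr7:28376953-28376977, minus strand: tgacgactTTATTTATTgtattaag
Zfp36l1, chr12:80108169-80108193, minus strand: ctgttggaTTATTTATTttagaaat
Zfp36l2, chr17:84184916-84184940, minus strand: tatttaacTTATTTATTatcttgtg
Elavl1, chr8:4285790-4285814, minus strand: catgaaaaTTATTTATTTATTTATT
Rc3h1, chr1:160970045-160970069, plus strand: tttactcaTTATTTATTgagatgag
Tnf, chr17:35199691-35199715, minus strand: tgcacttaTTATTTATTATTTATTT

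The Pumilio element (TGTANATA, sense strand) was found in 3 of the 10 genes, with 2 copies each, and in 25.6% of the 11462 tested genes and 34.3% of the 7068 of like length. Rc3h1 and Pum2 are shown, Pum2 because it holds the element that its own protein is known to bind and Rc3h1 beside it. The capitals mark the element.
Rc3h1, chr1:160969829-160969852, plus strand: gctatatcTGTATATAtatcgggt
Pum2, chr12:8750157-8750180, plus strand: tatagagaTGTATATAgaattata
Btg2, Zc3h12a and Khsrp held neither set of letters in the transcript searched. These matches describe the annotated sequence, and binding was not measured.

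Values are normalised read counts as deposited, called signal here, from libraries of 5828904 to 13199576 reads. Changes are log2 fold changes of signal + 1 with their SE, from limma fitted to 3 against 3 libraries with the spread pooled over all 12, and adjusted p means the Benjamini-Hochberg value over the 12879 genes. The macrophage markers Cx3cr1, Csf1r, Emr1 and Cd68 were detected in every library, and Cx3cr1 stood at 33.8 to 44.0 signal on day 3 against 127 to 204 on the other days, the lower level being that of the CX3CR1-low gate. The first day 0 library stood apart in early response genes such as Fos, Egr1 and Atf3, with a summed signal of 10473 over 21 genes against 3110.0 and 3432 in the other day 0 libraries. The second day 7 library held more fibroblast transcripts, with a summed signal of 2213 over 8 markers against 788 and 572. The 3 day 30 libraries were closer to each other than those of any other group, differing by a chi-square of 2.20 to 2.97 for each gene, where libraries of the other groups differed by 5.81 to 84.5. The share of reads from 4 genes taken as ribosomal RNA-like (mt-Rnr1, mt-Rnr2, Gm26924 and Lars2) was 30.4%, 43.0% and 49.3% on day 0, 25.5% to 32.4% on day 3, 35.4% to 47.7% on day 7 and 25.5% to 25.9% on day 30, and was thus lower on the days, and in the day 0 library, in which Zfp36 was high. With the libraries rescaled after leaving out these and the mitochondrial genes, each regulator that passed on day 3 against day 0, on day 30 against day 0 or on day 30 against day 7 still passed in the same direction. In bulk RNA, fewer cells of a kind and less RNA per cell cannot be told apart.

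Per kb of exon, Zfp36 had the highest mean level of the 10 on every day. It reached 240.1 signal per kb on day 0, 745 on day 3, 163 on day 7 and 648 on day 30. Zc3h12a had the lowest mean on every day, at 2.03, 5.79, 3.19 and 5.22 signal per kb. On day 0 the order below Zfp36 was Zfp36l1 (94.8), Zfp36l2 (80.7), Btg2 (78.2), Btg1 (51.3), Pum2 (21.7), Rc3h1 (11.5), Khsrp (10.4), Elavl1 (6.04) and Zc3h12a. In that order the libraries of neighbours overlapped from Zfp36 to Btg1 and again between Rc3h1 and Khsrp, and did not overlap between Btg1 and Pum2, Pum2 and Rc3h1, Khsrp and Elavl1, or Elavl1 and Zc3h12a. The exon length is the union over annotated transcripts, and for Zfp36 it spans the whole gene, so its level per kb of mature transcript is understated. Over the 12 libraries the highest signal was 8.95 times the lowest for Zfp36, 6.10 times for Btg1, 5.43 times for Btg2, 4.82 times for Zc3h12a and 4.07 times for Zfp36l2, and 1.77 to 2.71 times for the other 5.

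**Figure D1:**
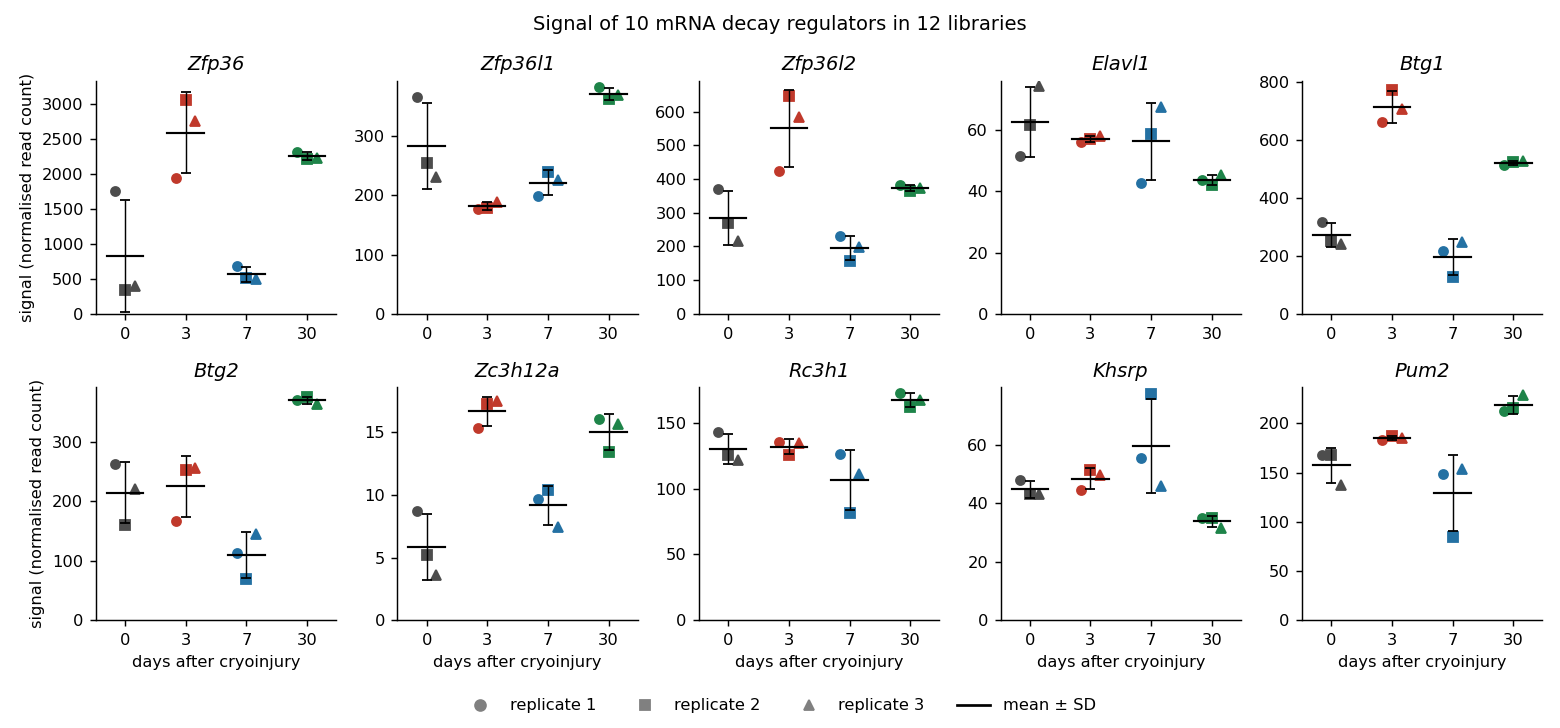
Signal (normalised read count, linear axes starting at 0) of each of the 10 regulators on days 0, 3, 7 and 30, with 1 marker per library and the mean ± SD of 3 libraries in black. Zfp36, Zfp36l2, Btg1 and Zc3h12a are lower on day 7 than on days 3 and 30, and Zc3h12a has its lowest mean on day 0. The first day 0 library of Zfp36 (1755) lies far above the others of its day (342 and 402).

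Zfp36 (ENSMUSG00000044786, chr7:28376784-28380253, minus strand, GRCm38) was among the most abundant transcripts of these cells, with a mean signal above that of 99.8% of genes. It had 1755, 342 and 402 signal on day 0, 1937, 3059 and 2759.9 on day 3, 683, 513 and 499 on day 7, and 2317, 2208 and 2225 on day 30. All libraries of days 3 and 30 lay above all libraries of days 0 and 7, while days 0 and 7 overlapped because of the first day 0 library. Zfp36 rose on day 3 against day 0 by 2.03 ± 0.43 (adjusted p = 0.00126, limma, n = 3 against 3). On day 7 it was lower than on day 3 by -2.18 ± 0.43 (adjusted p = 0.000768, limma). On day 30 it was higher than on day 7 by 2.01 ± 0.43 (adjusted p = 0.00223, limma). Against day 0 the day 30 value was 1.85 ± 0.43 (adjusted p = 0.0186, limma), and this call was lost with edgeR (1.45, adjusted p = 0.0730) and DESeq2 (1.44, adjusted p = 0.0956). Without the first day 0 library the changes against day 0 were 2.77 on day 3 and 2.60 on day 30, and on day 7 the value turned to 0.59 (adjusted p = 0.0650) from -0.16 ± 0.43 with it.

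Zfp36l1 (ENSMUSG00000021127, chr12:80107754-80113013, minus strand), a relative of Zfp36 with zinc fingers of the same kind, took another course. Its signal was 366, 254 and 230.4 on day 0, 177, 179 and 189 on day 3, 199, 239 and 226 on day 7, and 382, 362 and 368 on day 30. The day 3 libraries were the lowest of all 12, and the first day 0 library fell among those of day 30. Zfp36l1 fell on day 3 against day 0 by 0.61 on the log2 scale (SE 0.16, adjusted p = 0.00602, limma), while Zfp36 and Zfp36l2 rose, and these directions were the same under each scaling of the libraries tried. It rose on day 30 against day 7 by 0.75 ± 0.16 (adjusted p = 0.00243, limma). Day 30 was also above day 3, by 1.03 ± 0.16 (adjusted p = 0.000121, limma, in a comparison added after the values were seen). Between day 30 and day 0 the difference was 0.41 ± 0.16 (adjusted p = 0.141, limma) and did not pass, but it did without the first day 0 library (0.61, adjusted p = 0.0167).

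Zfp36l2 (ENSMUSG00000045817, chr17:84183931-84187947, minus strand), the third relative, followed Zfp36 with smaller steps. It had 372, 268 and 215 signal on day 0, 423, 645 and 584 on day 3, 230.3, 158 and 199 on day 7, and 383, 365 and 372 on day 30. The day 3 libraries lay above all others and the day 7 libraries overlapped only with day 0. The gene rose on day 3 against day 0 by 0.96 ± 0.21 (adjusted p = 0.00143, limma) and was lower on day 7 than on day 3 by -1.48 ± 0.21 (adjusted p = 4.31e-05, limma). On day 30 it was 0.94 ± 0.21 above day 7 (adjusted p = 0.00268, limma), and its value against day 0 was 0.42 ± 0.21 (adjusted p = 0.240, limma), or 0.63 (adjusted p = 0.0130) without the first day 0 and second day 7 libraries.

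The make-up of the family differed between days. Zfp36 took 69.0%, 38.0% and 45.6% of the summed signal per kb of the 3 genes on day 0, 75.7%, 78.4% and 77.7% on day 3, 59.9%, 54.2% and 52.1% on day 7, and 73.9%, 73.9% and 73.7% on day 30. In each day 3 and day 30 library Zfp36 thus held a larger share than in any library of days 0 and 7. These shares are descriptions, and the tests are those of the single genes.

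**Figure D2:**
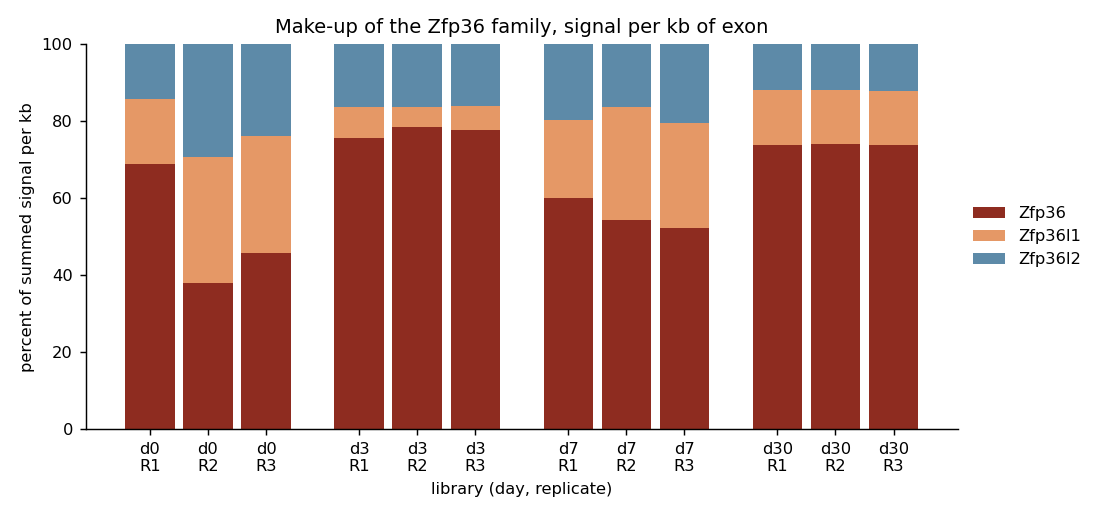
Share of Zfp36, Zfp36l1 and Zfp36l2 in their summed signal per kb of exon (percent, stacked bars from 0 to 100), 1 bar per library with d for day and R for replicate. The Zfp36 share runs from 75.7% to 78.4% on day 3 and from 73.7% to 73.9% on day 30, and on day 0 the first library (69.0%) stands apart from the other two (38.0% and 45.6%).

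Btg1 (ENSMUSG00000036478, chr10:96617006-96622809, plus strand) had the smallest p of the 10 in the test over the 4 groups (F = 36.4, adjusted p = 5.62e-06, limma). Its signal was 318, 251 and 242 on day 0, 662, 771 and 707 on day 3, 217, 126 and 247 on day 7, and 514, 523 and 527 on day 30. Days 3 and 30 each stood clear of the other 3 days, whereas days 0 and 7 overlapped. Btg1 rose on day 3 against day 0 by 1.40 ± 0.20 (adjusted p = 4.76e-05, limma), was lower on day 7 than on day 3 by -1.91 ± 0.20 (adjusted p = 3.57e-06, limma), and rose on day 30 against day 7 by 1.46 ± 0.20 (adjusted p = 0.000132, limma). Against day 0, day 30 was higher by 0.95 ± 0.20 (adjusted p = 0.0124, limma). Btg1 is also abundant in lymphocytes. The summed signal of 10 T and NK cell markers was 29.3 to 206 on day 0, 6.26 to 11.8 on day 3, 16.2 to 52.6 on day 7 and 16.3 to 20.51 on day 30. That of 5 B cell markers was 277 to 304 on day 0, 69.7 to 113 on day 3, 209.7 to 330.1 on day 7 and 235 to 252 on day 30. The part of lymphocytes in the values of Btg1 was not tested.

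Btg2 (ENSMUSG00000020423, chr1:134075170-134079120, minus strand), an early response gene in many cell types, did not follow Btg1 on day 3. It had 263, 161 and 220.4 signal on day 0, 167, 253 and 256 on day 3, 113, 69.2 and 146 on day 7, and 371, 376 and 364 on day 30. The day 7 libraries were the lowest and the day 30 libraries the highest of the 12, and days 0 and 3 overlapped. Btg2 fell on day 7 to 0.499 times its day 0 level on the signal + 1 scale (SE 0.25 on the log2 scale, adjusted p = 0.0101, limma), with a log2 change of -0.55 (adjusted p = 0.0738) once the first day 0 and second day 7 libraries were left out. It was lower on day 7 than on day 3 by -1.07 ± 0.25 (adjusted p = 0.00244, limma) and rose on day 30 against day 7 by 1.81 ± 0.25 (adjusted p = 0.000107, limma). The change on day 3 against day 0 was 0.07, with a 95% interval from -0.45 to 0.59. Of the summed signal per kb of both genes, Btg1 held 38.7%, 44.8% and 36.4% on day 0, 67.4%, 61.3% and 59.0% on day 3, an equal share in the first library and 48.7% and 46.8% in the others on day 7, and 41.9%, 42.0% and 43.0% on day 30.

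Zc3h12a (ENSMUSG00000042677, chr4:125118423-125127840, minus strand), the endonuclease, was the least abundant of the 10, with as few as 20 reads in a day 0 library. Its signal was 8.71, 5.24 and 3.62 on day 0, 15.3, 17.2 and 17.5 on day 3, 9.69, 10.4 and 7.45 on day 7, and 16.1, 13.4 and 15.7 on day 30. Days 3 and 30 overlapped each other and stood above days 0 and 7, which also overlapped. Zc3h12a rose on day 3 by 1.43 ± 0.24 (adjusted p = 0.000198, limma) and on day 30 by 1.29 ± 0.24 (adjusted p = 0.00631, limma), each against day 0. It was lower on day 7 than on day 3 by -0.81 ± 0.24 (adjusted p = 0.0132, limma). The rise on day 30 against day 7 was 0.66 ± 0.24 (adjusted p = 0.0405, limma), and it no longer passed without the second or the third day 3 library, the first or the third day 7 library, or any 1 of the day 30 libraries.

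Rc3h1 (ENSMUSG00000040423, chr1:160906418-160974978, plus strand), whose protein shares targets with that of Zc3h12a, moved less. It had 143, 125 and 122 signal on day 0, 135, 125 and 135 on day 3, 127, 81.6 and 111 on day 7, and 172, 162 and 167 on day 30. The day 30 libraries were the highest of the 12, and the other days overlapped. The difference that passed was that of day 30 against day 7, a rise of 0.67 ± 0.15 (adjusted p = 0.00375, limma). On day 3 against day 0 the change was 0.02, with a 95% interval from -0.31 to 0.35.

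Pum2 (ENSMUSG00000020594, chr12:8674134-8752581, plus strand) had 168, 168 and 137 signal on day 0, 183, 187 and 185 on day 3, 149, 84.6 and 154 on day 7, and 213, 215 and 229 on day 30. The day 30 libraries were again the highest and the second day 7 library the lowest. Pum2 was higher on day 30 than on day 7 by 0.81 ± 0.19 (adjusted p = 0.00409, limma). Its value on day 7 against day 3 was -0.57 ± 0.19 (adjusted p = 0.0228, limma), and this call was lost without the second day 7 library (-0.29), without the second or the third day 3 library, with quantile normalisation, with rescaled libraries and with the compared groups alone.

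Khsrp (ENSMUSG00000007670, chr17:57021051-57031522, minus strand), a decay-promoting protein, ran the other way. It had 48.0, 43.0 and 43.3 signal on day 0, 44.4, 51.2 and 49.6 on day 3, 55.4, 77.2 and 45.9 on day 7, and 34.8, 35.1 and 31.5 on day 30. The day 30 libraries were the lowest of the 12, and the second day 7 library was the highest. Khsrp fell on day 30 against day 7 by 0.77 on the log2 scale (SE 0.17, adjusted p = 0.00314, limma). That second day 7 library, rich in fibroblast transcripts, was also the lowest of the 12 for Zfp36l2, Btg1, Btg2, Rc3h1 and Pum2. The part of the fibroblast transcripts in these values was not tested. With that library and the first day 0 library left out Khsrp changed by -0.57 (adjusted p = 0.00383, limma) on day 30 against day 7. With all libraries 9 of the 10 genes passed in that comparison, against 39.6% of all tested genes.

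Elavl1 (ENSMUSG00000040028, chr8:4285382-4325413, minus strand), the stabilising protein of the set, was the only one of the 10 that did not pass the test over the 4 groups (adjusted p = 0.0936, limma). It had 51.6, 61.6 and 74.4 signal on day 0, 56.2, 57.3 and 58.0 on day 3, 42.8, 58.7 and 67.6 on day 7, and 43.8, 42.1 and 45.5 on day 30. Each library of day 30 lay below each of day 0, where the difference was -0.49 with a 95% interval from -0.86 to -0.12 and an adjusted p of 0.110 (limma), or -0.62 (adjusted p = 0.0162) without the first day 0 and second day 7 libraries. With all libraries 9 of the 10 genes passed the test over the 4 groups, against 63.9% of all tested genes. With the first day 0 and second day 7 libraries left out all 10 passed, and the share of all genes in that setting is not given here.

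The comparison of day 3 with day 0 sets Ly6c-high cells of the freshly injured heart beside Ly6c-low cells present without injury. Zfp36, Zfp36l2, Btg1 and Zc3h12a were higher on day 3 and Zfp36l1 was lower, which is 5 of the 10 genes, against 44.2% of all tested genes (22.1% higher and 22.1% lower), so the count itself was near that of genes at large. The median log2 change of the 10 was 0.17, against -0.02 over all genes. Groups did not overlap for 6 of the 10, against 55.4% of all genes. Of the genes that passed at large, 50.1% were higher, but 30.9% were with the libraries rescaled after leaving out ribosomal RNA-like and mitochondrial genes, which moved the median of all genes by -0.26. The same 5 regulators passed under all 25 alternatives tried, in the same directions, and without the first day 0 and second day 7 libraries Pum2 passed too (0.28, adjusted p = 0.0387, limma).

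Of 15 tested transcripts known as AU-rich or stem-loop targets of such proteins, 9 were higher on day 3 than on day 0 and 2 lower. Of all tested genes 22.1% were higher and 22.1% lower. The median log2 change of the 15 was 1.36, against -0.02 over all genes. Vegfa, a growth factor of blood vessels, rose by 5.15 ± 0.35, Ptgs2, which encodes cyclooxygenase-2, by 3.70 ± 0.24 and Ccl2, a chemokine that draws monocytes, by 3.41 ± 0.18. Tfrc, the transferrin receptor, and Myc, the transcription factor, were the 2 that fell. The enzymes that act on the regulators had 4 of 10 higher and 1 lower. These are 50% of the list, near the 44.2% of all tested genes called in either direction. Malt1, a protease that cleaves the products of Zc3h12a and Rc3h1, rose by 1.69 ± 0.21, Mapkapk3, a kinase related to the one that phosphorylates Zfp36 protein, by 1.34 ± 0.22 and Ikbkb, a kinase of the NF-kB pathway, by 0.94 ± 0.14.

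The general decay machinery acts after these regulators, on the tail, the cap and the body of the transcript. Each of its lists had a smaller share of genes called on day 3 against day 0 than the 44.2% of all tested genes (22.1% in each direction). Of 17 deadenylase genes 2 were higher on day 3 than on day 0 and 1 was lower, among them Btg3, a relative of Btg1, at 1.33 ± 0.36. Of 19 decapping and 5′ to 3′ decay genes 4 were higher and 1 lower, with the decapping enzyme Dcp2 at 1.07 ± 0.17 and the exonuclease Xrn1 at 0.83 ± 0.17. Of 14 genes of the exosome, which degrades from the 3′ end, and its Ski helper complex 3 were higher and none lower. Of 10 genes of nonsense-mediated decay 4 were higher and none lower, with a median log2 change of 0.44 against -0.02 over all genes. The summed signal of these 10 was 407 to 417 on day 0 and 666 to 685 on day 3. Among 21 other proteins that bind AU-rich elements or 3′ untranslated regions 8 were higher and 1 lower. Igf2bp2, an RNA-binding protein that stabilises its targets, had the largest change of that list at 3.76 ± 0.35.

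On day 7 against day 0, both sorted through the same gate, only Btg2 passed, 1 of the 10 genes, against 21.6% of all tested genes and 10.2% lower. The median of the 10 was -0.32, against -0.02 over all genes, and only for Btg2 did the groups not overlap, against 32.2% of all genes. Zc3h12a had the largest positive value at 0.63 ± 0.24 (adjusted p = 0.0759, limma). Of the 15 target transcripts 3 passed, and each of them fell: Tfrc by 1.29, Ccl2 by 0.99 and Tnf by 0.72 on the log2 scale. Mapkapk3 rose by 1.38 ± 0.22 and the deadenylase adaptor Tob1 fell by 0.82 (SE 0.23). Without the first day 0 and second day 7 libraries the call of Btg2 was lost (adjusted p = 0.0738, limma), while Zc3h12a at 0.82 (adjusted p = 0.0164) and Zfp36 at 0.65 (adjusted p = 0.0377) passed as higher. Without the first day 0 library alone Zc3h12a stood at 0.91 (adjusted p = 0.0117, limma).

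On day 30 against day 0, again within 1 gate, Zfp36, Btg1 and Zc3h12a rose and none of the 10 fell. These are 3 of the 10 genes higher, against 3.45% of all tested genes higher, 2.73% lower and 6.18% called in either direction. The median of the 10 was 0.45, against -0.01 over all genes, and groups did not overlap for 8 of the 10, against 40.8% of all genes. With the 3 day 30 libraries averaged and counted as 1 sample none of the 10 passed in limma (adjusted p from 0.390 to 0.483 for these 3) and 14 genes did at large. The calls of Zfp36 and Btg1 also ended without the second or the third day 0 library or any 1 of the day 30 libraries. The first day 0 and second day 7 libraries stood apart in these same data. Without them 9 of the 10 passed, against 2513 of the 12879 tested genes. Among the 6 that then passed in addition, Btg2 (0.97), Zfp36l2, Zfp36l1, Pum2 (0.52) and Rc3h1 (0.43) were higher and Elavl1 was lower.

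The target transcripts were also higher on day 30, in 11 of 15 with none lower, against 3.45% of all tested genes higher and 2.73% lower. Cxcl1, a neutrophil-attracting chemokine, rose by 2.81 ± 0.64, Il10, an anti-inflammatory cytokine, by 2.53 ± 0.31 and Ptgs2 by 2.52 ± 0.24, each against day 0. Fewer of the 15 passed with the day 30 libraries averaged and counted as 1 sample. The first day 0 library had the highest summed signal of these targets on its day, so a count without it is not given. Of the 17 deadenylase genes none passed in limma (3 at an unadjusted p under 0.05), none in edgeR and 1 in DESeq2. None of the 14 exosome genes and none of the 10 nonsense-mediated decay genes passed in limma, edgeR or DESeq2, with 0 and 2 at an unadjusted p under 0.05 in limma. Lsm3, a subunit of a ring that binds deadenylated tails, fell by 0.80 on the log2 scale (SE 0.22). Malt1 was higher by 1.11 ± 0.21, and Zc3h12c, a relative of Zc3h12a, by 1.01 ± 0.20.

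The comparison of day 7 with day 3 sets Ly6c-low cells beside the Ly6c-high cells of the early injury. Zfp36, Zfp36l2, Btg1, Btg2, Zc3h12a and Pum2 were lower on day 7. Zfp36l1 (0.28) and Khsrp (0.26) did not pass, but both passed as higher with quantile normalisation (0.66, adjusted p = 0.00182, and 0.51, adjusted p = 0.0352, limma) and with rescaled libraries (0.49, adjusted p = 0.0118, and 0.46, adjusted p = 0.0310), and Khsrp also without the third day 7 library (0.43, adjusted p = 0.0472). These 6 genes compare with 23.5% of all tested genes lower, 23.3% higher and 46.8% called in either direction. The median of the 10 was -0.69, against 0.04 over all genes, and groups did not overlap for 7 of the 10, against 50.9% of all genes. Of the genes that passed at large 49.8% were higher, but 64.0% were with the rescaled libraries, which moved the median of all genes by 0.18. Of the 6 calls, 5 held under all 25 alternatives, the exception being that of Pum2.

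The target transcripts were lower on day 7 than on day 3 in 12 of 15 and higher in none. Vegfa was lower by -5.08 ± 0.35, Ccl2 by -4.40 ± 0.18 and Ptgs2 by -3.50 ± 0.24. Other binding proteins were lower in 10 of 21 and higher in 1, with Igf2bp2 at -3.31 ± 0.35 and Hnrnpd (AUF1), a decay factor of AU-rich transcripts, at -1.70 ± 0.26. In the decay machinery 6 of 17 deadenylase genes were lower and 1 higher, 6 of 19 decapping genes lower and 2 higher, 3 of 14 exosome genes lower and 2 higher, and 4 of 10 nonsense-mediated decay genes lower and none higher. In either direction these are 41.2%, 42.1%, 35.7% and 40% of the lists, against 46.8% of all tested genes (23.5% lower and 23.3% higher). Dcp2 changed by -1.24 ± 0.17, Upf2 by -1.32 ± 0.21 and Malt1 by -1.61 ± 0.21.

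Between days 30 and 7, which share a gate, the most regulators differed. Zfp36, Zfp36l1, Zfp36l2, Btg1, Btg2, Zc3h12a, Rc3h1 and Pum2 rose and Khsrp fell, so 8 of the 10 were higher, against 19.7% of all tested genes higher, 19.9% lower and 39.6% called in either direction. The median of the 10 was 0.78, against 0.01 over all genes. Groups did not overlap for 9 of the 10, against 55.3% of all genes. With the day 30 libraries averaged and counted as 1 sample 2 of the 10 passed, Btg1 and Btg2. In the same comparison 6 of 8 fibroblast, 7 of 8 cardiomyocyte and 4 of 5 mast cell markers were lower, and the part of these cells in the values of the regulators was not tested.

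Target transcripts rose on day 30 against day 7 in 14 of 15, the exception being Il6 at 0.90 ± 0.41 (adjusted p = 0.0932, limma). Nfkbiz, a nuclear regulator of NF-kB targets and a known substrate of Zc3h12a, rose by 3.34 ± 0.38, Cxcl1 by 3.31 ± 0.64 and Cxcl2 by 3.05 ± 0.58. Deadenylase genes were higher in 7 of 17 and lower in 1, with the adaptor Tob1 at 1.18 ± 0.23, and other binding proteins in 9 of 21 with 1 lower. Decapping genes were higher in 4 of 19 and lower in 3, and nonsense-mediated decay genes higher in 4 of 10 and lower in 3. In either direction 47.1% of the deadenylase, 47.6% of the other binding protein, 36.8% of the decapping and 70% of the nonsense-mediated decay genes passed. Of all tested genes 39.6% passed, 19.7% as higher and 19.9% as lower. Of the exosome genes 3 of 14 were lower, near the 19.9% of all genes, and the median of that list was 0.06, with Exosc5 at -1.13 ± 0.24. Mapkapk3 was lower by -1.21 ± 0.22. With the averaged day 30 libraries 10 of the 15 target transcripts passed.

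Day 30 was set against day 3 only to complete the order of levels, after the values had been seen. Zfp36l1 and Btg2 were higher and Zfp36l2 and Khsrp lower on day 30, which is 4 of the 10 genes, against 39.4% of all tested genes (19.2% higher and 20.3% lower). Groups did not overlap for 8 of the 10, against 62.4% of all genes. Of the genes that passed at large 48.6% were higher, but 68.2% were with the rescaled libraries, which moved the median of all genes by 0.23. The Zfp36l2 call (-0.54 ± 0.21, adjusted p = 0.0499, limma) held under 10 of the 25 alternatives, the Khsrp call (-0.51 ± 0.17, adjusted p = 0.0292, limma) under 17, the Btg2 call (0.74 ± 0.25, adjusted p = 0.0259, limma) under 20 and the Zfp36l1 call under all 25. Zfp36 differed by -0.17, with a 95% interval from -1.08 to 0.73, and Zc3h12a by -0.14, with an interval from -0.66 to 0.37.

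**Figure D3:**
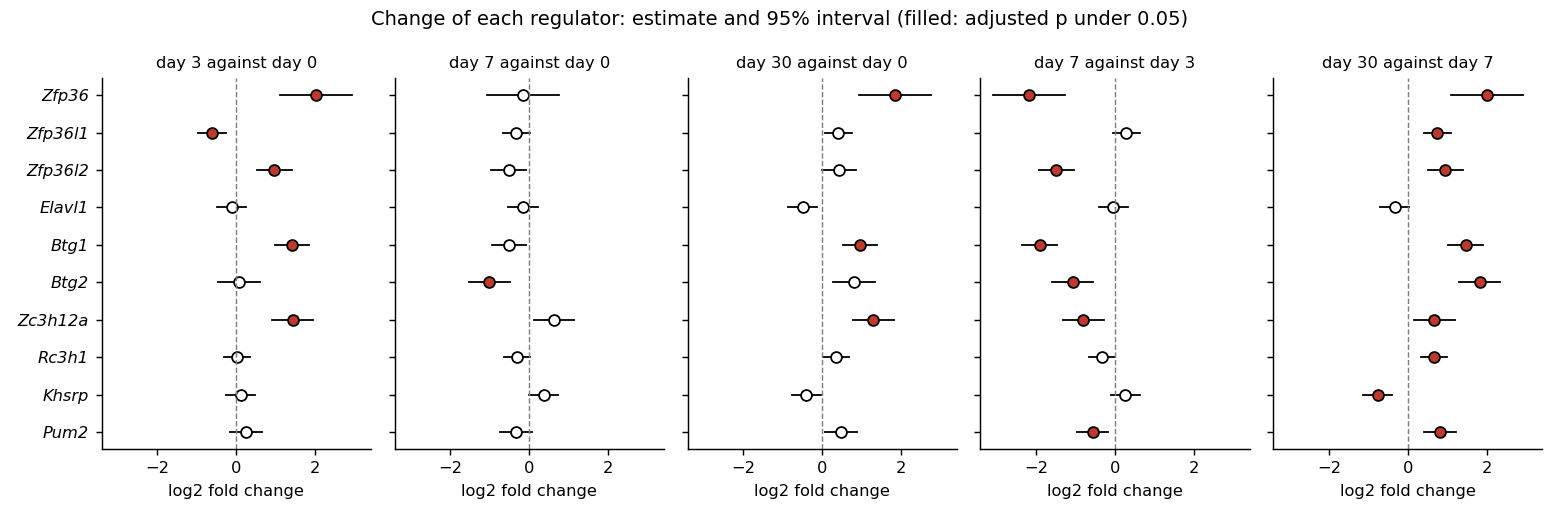
Log2 fold change of each regulator (point) with its 95% interval (line) in the 5 comparisons of the design, from limma over 12 libraries. Filled points passed an adjusted p of 0.05, open points did not. Points for most genes lie left of 0 on day 7 against day 3 and right of 0 on day 30 against day 7, with Khsrp on the opposite side in both.

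Early response genes, which are induced rapidly by many stimuli, varied between the same libraries as several of the regulators. Their summed signal over 21 genes was 10473, 3110.0 and 3432 on day 0, 3824, 5404 and 4789 on day 3, 2298, 1768 and 2661 on day 7, and 7893, 7941 and 7805 on day 30. The sum was thus lowest on day 7 and, outside the first day 0 library, highest on day 30. On day 30 against day 7, 19 of 20 tested early response genes were higher, against 19.7% of all tested genes. On day 30 against day 0 7 of the 20 were, against 3.45% of all genes. On day 3 against day 0 8 of the 20 were higher and 6 lower, against 22.1% of all genes in each direction. Fewer of them passed on day 30 against day 7 and on day 30 against day 0 with the day 30 libraries averaged. Because the first day 0 library was set apart by the signal of these same genes, counts without it are not given. The summed signal of the target transcripts showed the same library, with 1808, 506 and 615 on day 0, 2774, 3148 and 3331 on day 3, 524, 435 and 579 on day 7, and 3232, 3209.7 and 3272 on day 30. The part of the early response in the values of the regulators was not tested.

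**Figure D4:**
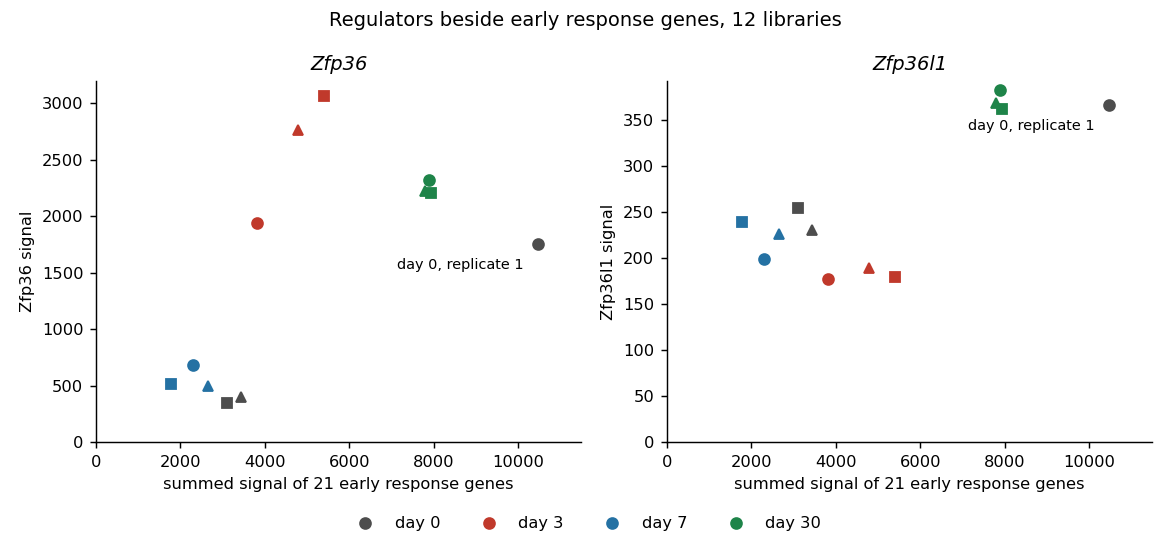
Signal of Zfp36 (left) and Zfp36l1 (right) against the summed signal of 21 early response genes, 1 point per library, linear axes, with the replicate shown by the marker as in the plot of levels. For Zfp36 the day 3 libraries (1937 to 3059) span the level of those of day 30 (2208 to 2317) at smaller early response sums, and for Zfp36l1 the day 3 libraries (177 to 189) lie lowest.

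Markers of other cells gave further values that moved with the days. The summed signal of 7 Ly6C-high monocyte markers was 3476 to 5261 on day 3, against 201 to 848 in all other libraries, in step with the gate. Cardiomyocyte markers summed to 74.2 to 377 on day 0, 7.44 to 12.2 on day 3, 78.0 to 206 on day 7 and 20.7 to 22.3 on day 30, and Myl3 was at 0 in all day 3 libraries. Mast cell markers summed to 22.5 to 38.9 on day 0, 0.575 to 0.794 on day 3, 10.5 to 18.5 on day 7 and 2.54 to 3.61 on day 30, with Cpa3, Cma1, Mcpt4 and Tpsb2 at 0 on day 3. Neutrophil markers summed to 53.1 to 97.6 on day 0, 185 to 242 on day 3, 97.8 to 152 on day 7 and 60.2 to 64.4 on day 30. Of those tested, Csf3r and Cxcr2 were higher on day 3 than on day 0, and S100a8 and S100a9 did not pass. On day 7 against day 0 Csf3r was higher (1.22), while S100a8 (-1.03), S100a9 (-0.90) and Cxcr2 (-0.57) had negative values that did not pass. Fibroblast markers were highest on day 7, with sums of 45.9 to 127 on day 0, 289.5 to 387 on day 3, 572 to 2213 on day 7 and 175 to 184 on day 30. These markers did not move as 1 on day 3 against day 0. Col1a1, Col1a2, Col3a1 and Postn were higher, Dcn and Dpt lower, and Lum and Pdgfra did not pass. The part of these cells in the values of the regulators was not tested.

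Each regulator that passed the test over the 4 groups was set beside the genes most like it, by Pearson correlation of log2(signal + 1) over the 12 libraries among the 7066 genes whose mean signal was 10 or more. These correlations are descriptions, since libraries of 1 day share their treatment and gate. Nearest to Zfp36 were Atf3 (r = 0.988) and Nr4a1 (r = 0.985), both early response genes, and nearest to Zfp36l1 were Egr1 (r = 0.971) and Cd83 (r = 0.965). Zfp36l2 lay nearest to Sde2 (r = 0.984) and Sf3b1 (r = 0.979), and Btg1 to Gp49a (r = 0.987) and the same Sf3b1 (r = 0.987). The nearest genes were Map3k8 (r = 0.956) and Ttc39b (r = 0.952) for Btg2, and Tgif1 (r = 0.974) and Csrnp1 (r = 0.968) for Zc3h12a. They were Cul5 (r = 0.986) and Sos2 (r = 0.971) for Rc3h1, Tug1 (r = 0.982) and Rab14 (r = 0.978) for Pum2, and Plekho1 (r = 0.981) and Os9 (r = 0.978) for Khsrp. Among the 10 themselves the closest courses were those of Zfp36l2 and Btg1 (r = 0.944) and of Rc3h1 and Pum2 (r = 0.933), and the most opposed were Rc3h1 and Khsrp (r = -0.886).

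The promoters of Zfp36 and Btg2 are shown because, of the promoters searched, these hold the letters of the EGR motif, which is bound by the product of the early response gene Egr1. The courses of these genes differed on day 3 against day 0, which joins time and gate. Egr1 fell there by 2.36 on the log2 scale (SE 0.31, adjusted p = 1.96e-05, limma), Zfp36 rose by 2.03 and Btg2 stood at 0.07. Between days 30 and 7, which share a gate, Egr1 rose by 2.19 (adjusted p = 0.000156, limma), and Zfp36 and Btg2 rose too. Against day 0, Egr1 stood at -1.15 on day 7 (adjusted p = 0.0173, limma), where Btg2 also fell and Zfp36 did not pass. On day 30 Egr1 stood at 1.04 (adjusted p = 0.0621, limma), where Zfp36 rose and Btg2 did not pass. The part of Egr1 in these values was not tested. RefSeq promoters on GRCm38.p6, from 250 bases before to 50 bases after the annotated start, were matched for 9 of the 10 genes. The EGR letters (GCGNGGGCG, both strands) were found in these 2 of the 9 and in 5.55% of 27025 promoters. The full cyclic AMP response element (TGACGTCA) was found in Btg2 alone, against 1.88% of promoters, and begins 166 bases before its start. The capitals mark both kinds of motif, of which Zfp36 has the EGR letters only.
Zfp36, chr7:28379179-28379478, minus strand: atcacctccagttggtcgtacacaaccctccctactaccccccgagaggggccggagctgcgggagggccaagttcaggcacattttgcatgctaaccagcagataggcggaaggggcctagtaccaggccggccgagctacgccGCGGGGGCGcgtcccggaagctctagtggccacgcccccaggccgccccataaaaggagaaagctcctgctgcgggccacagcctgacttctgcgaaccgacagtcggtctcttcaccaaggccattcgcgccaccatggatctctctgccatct
Btg2, chr1:134079106-134079405, minus strand: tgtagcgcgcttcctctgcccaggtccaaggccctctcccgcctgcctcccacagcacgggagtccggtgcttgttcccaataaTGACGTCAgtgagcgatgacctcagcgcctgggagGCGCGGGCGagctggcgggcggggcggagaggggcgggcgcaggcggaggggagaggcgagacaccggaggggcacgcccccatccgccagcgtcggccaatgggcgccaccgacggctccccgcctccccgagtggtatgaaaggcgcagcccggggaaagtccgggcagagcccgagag
The GC box (GGGCGG, both strands), which overlaps the EGR letters in part, was in 7 of the 9 and in 35.9% of all promoters. The AP-1 letters (TGANTCA) were in Rc3h1 and Zfp36l1 and in 7.93% of promoters, and the NF-kB motif, in the forms searched, was not in any of the 9 windows, against 0.714% of promoters. A match describes these letters in this window and says nothing of binding.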

How the data were processed

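RNA of sorted cells was sequenced, and the authors deposited a table of normalised read counts per gene (signal). Per the submitters' processing notes, cutadapt 1.3, RSEM 1.2.20, edgeR 3.14.0 and the build GRCm38 were used; their order and the strand of the reads are not given in the sources used here. Each signal was a whole multiple of 1 step per library: 100% of values were whole reads within 0.02 reads, which recovered depths of 5828904 to 13199576 reads. A count of 0 allows up to 3 reads, for counting error only. 12 further columns, a log2 copy, were not used. GENCODE M21 held 14232 identifiers (98.4%).

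Log2(signal + 1) of the 12879 genes averaging 1 signal or more was fitted with limma 3.58.1 in R 4.3.3 (variance trend, 4 group means, two-sided, Benjamini-Hochberg over all genes, threshold 0.05). Because p-values rest on the spread between these libraries, any technical sharing among them would make p too small. Alternatives were other pseudocounts, filters and scalings, a replicate block, the compared groups alone, edgeR 4.0.16 and DESeq2 1.42.0 on recovered reads, averaged day 30 libraries, and leaving out libraries. The 3′ untranslated region of a gene came from its best supported transcript, the longest among equals.

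The members, lists and motifs were chosen with earlier results of these data known. Named genes outside the 10 are up to 3 that passed per list and comparison, by size of change, and the 2 most alike per member. Libraries with the same number deviated together at a median r of 0.00490 (-0.0831 to 0.210, 18 pairs), so no pairing was used.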

Additional observations from a re-analysis of the deposited data

How the results depend on the processing

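Depth limits Zc3h12a most, with 20 reads in 1 library. Day 30 against day 0 depended most on the processing: 796 genes passed, against 2674 with the compared groups alone, 1328 with DESeq2, 14 with averaged day 30 libraries, 2513 without the first day 0 and second day 7 libraries, and 235 to 1990 with 1 library left out. Regulators passed in 3, against 8, 3, 0, 9 and 1 to 7. With averaged day 30 libraries 815 genes in place of 5103 and 2 regulators in place of 9 passed on day 30 against day 7, 1740 genes in place of 2782 on day 7 against day 0, and 2013 genes in place of 5079 on day 30 against day 3. On day 7 against day 0 the compared groups alone gave 1158 genes, and 1 regulator became 2 with quantile normalisation, 3 rescaled, 2 with DESeq2, 2 without the first day 0 and second day 7 libraries, and 1 to 3 with 1 library left out. On day 30 against day 3, 4 regulators became 8 with the compared groups alone, 1 averaged, 7 without those libraries, and 1 to 6 with 1 left out. The cause was not tested.

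A sign turned in 24 values, none of which had passed. On day 3 against day 0, quantile normalisation and rescaling gave -0.32 and -0.22 for Btg2, -0.14 and -0.18 for Khsrp, -0.19 and -0.055 for Pum2, and -0.38 and -0.27 for Rc3h1. On day 7 against day 3 they gave 0.21 and 0.16 for Elavl1, and quantile normalisation 0.047 for Rc3h1. On day 30 against day 3 they gave 0.087 and 0.095 for Zfp36, and rescaling 0.11 for Zc3h12a. Zfp36 on day 7 against day 0 was 0.65 without the first day 0 and second day 7 libraries. With 1 library left out, the range crossed 0 for Btg2 (-0.12 to 0.27), Elavl1 (-0.24 to 0.019) and Rc3h1 (-0.023 to 0.091) on day 3 against day 0, for Elavl1 (-0.30 to 0.026) and Zfp36 (-0.59 to 0.59) on day 7 against day 0, and for Elavl1 (-0.18 to 0.14) on day 7 against day 3.

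With the replicate number as a block, 5725, 2850, 835, 6040, 5144 and 5110 genes passed on days 3, 7 and 30 against day 0, day 7 against 3, and day 30 against 7 and 3. The numbers name no shared animal, and 6 of 12 libraries correlated best with their own number. The block changed 1 regulator's call, that of Zfp36l2 on day 30 against day 3 (adjusted p = 0.0593).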
